A study of Mus musculus with 6 samples.

Results

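The T-box family is a group of transcription factors that share a DNA-binding domain, the T-box. The 10 members followed here were T (brachyury), Eomes, Tbx6, Tbx1, Tbx20, Tbx2, Tbx3, Tbx4, Tbx5 and Mga, chosen by gene symbol and not by their values, out of 24054 genes in each expression table. RNA-seq was performed on mouse embryonic stem cells (ESCs) that carry a Foxa2-Venus and a Sox17-Cherry fusion gene, heterozygous for the former and homozygous for the latter, a background that all samples shared. The cells were differentiated towards endoderm with 1 ng/ml Wnt3a and 10 ng/ml Activin A and were sorted at day 0 as Venus- and Cherry-negative ESCs (d0), at day 3 as Venus-positive, Cherry-negative cells (d3F), or at day 5 as cells positive for both (d5FS), with 2 samples per population. All samples come from a single ESC line, and its d3F and d5FS cells are the part of each culture that passed the sort.

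T-box factors act early in the embryo, where they turn responses to Nodal/Activin and Wnt signals into the choice between germ layers. T and Eomes are expressed in the primitive streak. T is needed for posterior mesoderm and the notochord, and Eomes for definitive endoderm and the earliest cardiac mesoderm. Other members act later, in the heart, the limbs and the pharyngeal region, and Tbx3 is also part of the self-renewal network of ESCs. Mga is the exception in structure, since it carries a basic helix-loop-helix domain beside its T-box and belongs to a repressive Polycomb complex.

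On mm10 (GENCODE M21), T lies at chr17:8434423-8442496 on the plus strand and Eomes at chr9:118478212-118486132 on the plus strand. The transcripts that the tables count for them hold 8 exons and 6 exons. Tbx2 (chr11:85832551-85841948) and Tbx4 (chr11:85886422-85916097) lie 44.5 kb apart with 1 protein-coding gene between them, and Tbx3 (chr5:119670669-119684724) and Tbx5 (chr5:119832668-119885219) lie 147.9 kb apart with 0 between them, all on the plus strand. Tbx6 lies at chr7:126781483-126785560 and Mga at chr2:119897228-119969581, both on the plus strand, whereas Tbx20 (chr9:24718138-24774303) and Tbx1 (chr16:18580979-18590671) lie on the minus strand. Antisense genes overlap parts of Eomes (Gm33460, by 574 bases) and Tbx3 (Tbx3os1, by 697 bases). The library kit does not mark strand, so reads of these stretches cannot be assigned to a strand, and neither antisense gene is listed in the tables.

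The start regions of T and Eomes are shown because these were the members with the largest counts among those that changed. They are RefSeq promoter windows of GRCm38.p6, from 250 bases before to 50 bases after the start, on the plus strand. Capitals mark matches to AGGTGNNA on either strand, a core of the sequence that T-box proteins recognise.

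T promoter, chr17:8434173-8434472: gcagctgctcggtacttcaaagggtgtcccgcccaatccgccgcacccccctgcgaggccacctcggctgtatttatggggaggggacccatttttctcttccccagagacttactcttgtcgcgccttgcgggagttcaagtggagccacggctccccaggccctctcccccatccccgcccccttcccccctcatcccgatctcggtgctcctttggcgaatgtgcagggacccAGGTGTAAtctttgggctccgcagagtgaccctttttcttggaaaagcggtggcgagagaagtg

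Eomes promoter, chr9:118477939-118478238: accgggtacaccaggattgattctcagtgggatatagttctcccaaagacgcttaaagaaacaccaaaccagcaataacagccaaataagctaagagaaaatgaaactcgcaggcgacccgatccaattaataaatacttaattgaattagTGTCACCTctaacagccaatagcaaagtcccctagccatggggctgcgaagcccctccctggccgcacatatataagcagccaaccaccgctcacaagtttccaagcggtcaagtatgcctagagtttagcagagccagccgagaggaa

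The match in T begins at position -14 from the start and reads along the gene, and the match in Eomes begins at position -99 and reads on the opposite strand. Windows were listed for 7 of the 10 members, 8 windows in all, and 1 further match was found in one of the windows of Tbx1, at position -76. Tbx2, Tbx3 and Tbx5 have no window. Of all 32851 promoters of this length, 15.96% held AGGTGNNA. The longer AGGTGTGA, which AGGTGNNA includes, was held by 1.28% of promoters and by none of the 8 windows, and CTTTGAT, a sequence bound by the Wnt effectors of the TCF/LEF family, by 3.73% and by none. These motifs were chosen after the expression values were seen, and a match is only a description of the letters.

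Total expected counts per sample, which RSEM estimates per gene, ranged from 16457729 to 22768686, so that a single count is worth 0.0439 to 0.0608 CPM (counts scaled to the same total in each sample). Levels of the members across samples are given mainly as CPM. TPM, which are scaled for transcript length as well, are used to compare genes with each other, for ratios and shares within a sample, and for the genes of the lists below. Long transcripts were counted more in replicate 1, by a median of 0.28 to 0.55 on the log2 scale for transcripts over 8000 bases, and short ones less, by 0.20 to 0.40 for those under 1000 bases. The median TPM ratio of replicate 1 to replicate 2 was 2.13 for d0, 1.68 for d3F and 1.52 for d5FS, so TPM of 1 gene in different samples carry these ratios too. The summed TPM of 6 pluripotency genes was 1520 and 3650 for d0, 660 and 254 for d3F and 193 and 92.3 for d5FS. Dppa5a made up 907.16 and 3090.37 TPM of the d0 sums. Pou5f1 and Nanog overlapped between d0 and d3F, whereas Sox2, Zfp42, Dppa5a and Klf4 did not. The sum of 6 endoderm genes was 2.3 and 1.16, then 59.2 and 43, then 119 and 132. These genes include Foxa2 and Sox17, on which the cells were sorted, so their sum is not independent of the sort. Cer1 made up 87.86 and 92.21 TPM of it in d5FS. In bulk samples, fewer cells that express a gene and less RNA per cell cannot be told apart.

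The summed TPM of the 10 genes was 22.77 and 6.92 for d0, 90.96 and 38.26 for d3F and 31.51 and 15.99 for d5FS for replicates 1 and 2. Both d3F samples were above every other sample, whereas the d0 and d5FS samples overlapped. By summed CPM d3F was not separated, with 489.2 and 340 CPM against 459.2 and 277.9 CPM in d5FS and 293.4 and 162.9 CPM in d0. Mga held the largest share of the sum in d0, with 48.9% and 46.2%. T held 67.8% and 39.4% in d3F, beside Eomes with 20.9% and 45.4%. Eomes led in d5FS with 48.9% and 62.3%, where T held 6.73% and 3.25%. These are shares of the transcripts of the family, so a rise of one member lowers the share of the others.

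**Figure D1:**
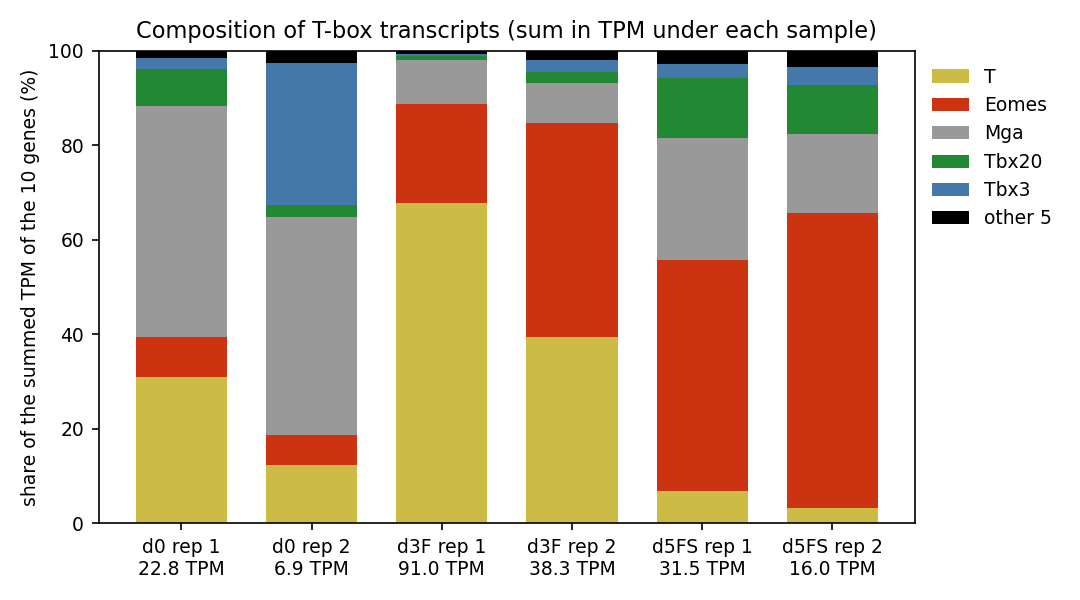
Share (%) of each member in the summed TPM of the 10 T-box genes, as stacked bars for the 6 samples, with the sum in TPM under each sample and the 5 members of lowest level added up in black. Mga holds the largest share in d0, T and Eomes hold 67.8% and 20.9% in d3F replicate 1 and 39.4% and 45.4% in replicate 2, and Eomes holds the largest share in d5FS.

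In order of mean TPM, d0 began with Mga (7.17), T (3.94), Tbx3 (1.32), Eomes (1.18) and Tbx20 (0.98), and neighbours among these 5 were not separated by their 2 samples. The other 5 members had 0.12 TPM or less. In d3F, T (38.4) and Eomes (18.2) overlapped with each other and stood above Mga (5.9), which stood above all others. In d5FS, Eomes (12.7) stood above Mga (5.43), while Mga, Tbx20 (2.81), T (1.32) and Tbx3 (0.8) each overlapped with the next. Tbx6, Tbx2, Tbx1, Tbx4 and Tbx5 remained at or below 0.305 TPM on average in each population.

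**Figure D2:**
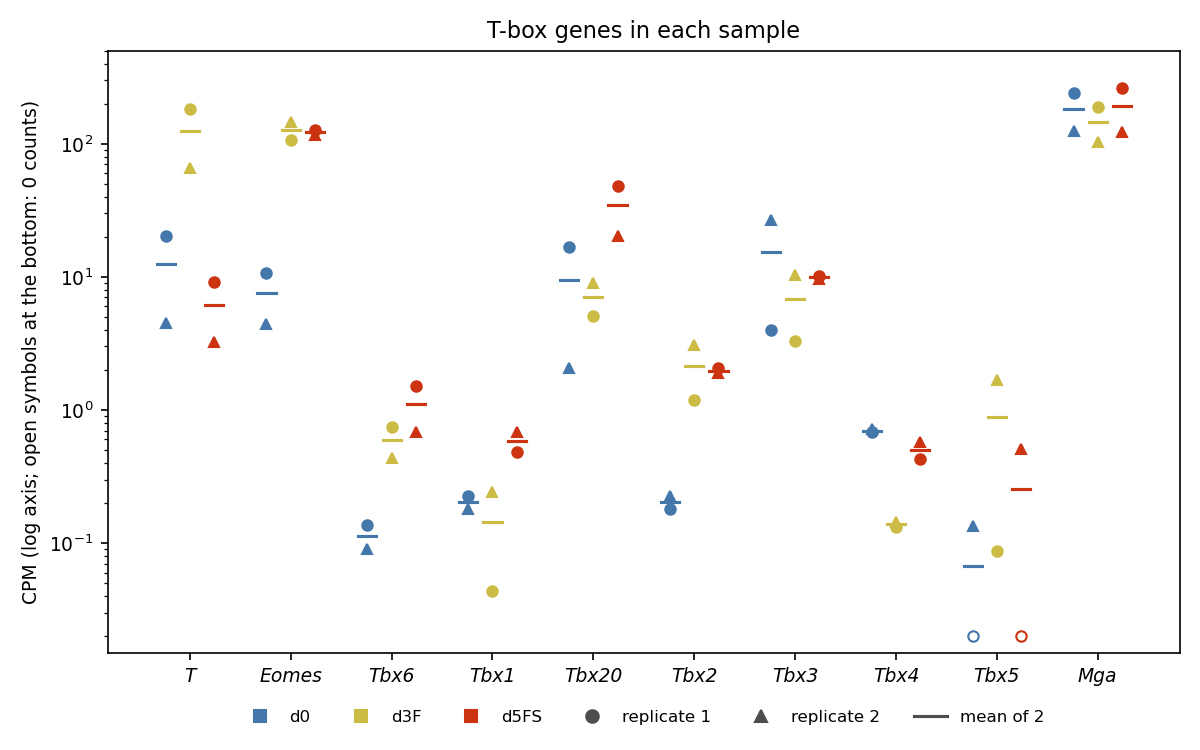
CPM of the 10 T-box genes on a log axis in d0, d3F and d5FS; circles are replicate 1, triangles replicate 2, bars the mean of 2 samples, and open circles at the bottom samples with 0 counts. T stands highest in d3F, and Eomes stands at like levels in d3F and d5FS and far lower in d0. The replicates of T, Tbx3 and Tbx20 lie far apart in d0, and those of Tbx5 in d3F.

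Comparisons between populations were made with edgeR over all genes, and a gene was called when its adjusted p was under 0.05 and its log2 fold change beyond 1 in either direction. All 10 members passed the filter on low counts, as did 14539 of the 24054 genes. Only 5 of the 10 (T, Eomes, Tbx20, Tbx3 and Mga) had at least 10 counts in every sample, and the other 5 passed through their higher samples, so that counts over the members describe them and support nothing further. From d0 to d3F, 3 members were higher and 0 lower, where 2.8% of all tested genes were called higher and 1.9% lower. Without the adjustment, 4 members were higher and 1 lower at p under 0.05, and DESeq2 called 3 higher and 0 lower. From d3F to d5FS, 0 members were higher and 1 was lower (all genes: 1.08% higher, 0.461% lower), with 2 higher and 1 lower at an unadjusted p under 0.05 and 1 and 1 called by DESeq2. From d0 to d5FS, 3 members were higher and 0 lower (all genes: 12.4% higher, 10.4% lower), with 3 and 0 at an unadjusted p under 0.05 and 4 and 0 called by DESeq2. The median log2 fold change of the 10 members was 0.91, 0.42 and 1.57 in these 3 comparisons, and that of all tested genes -0.01, 0.01 and 0.02. The 3 comparisons share samples and are not independent of each other.

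**Figure D3:**
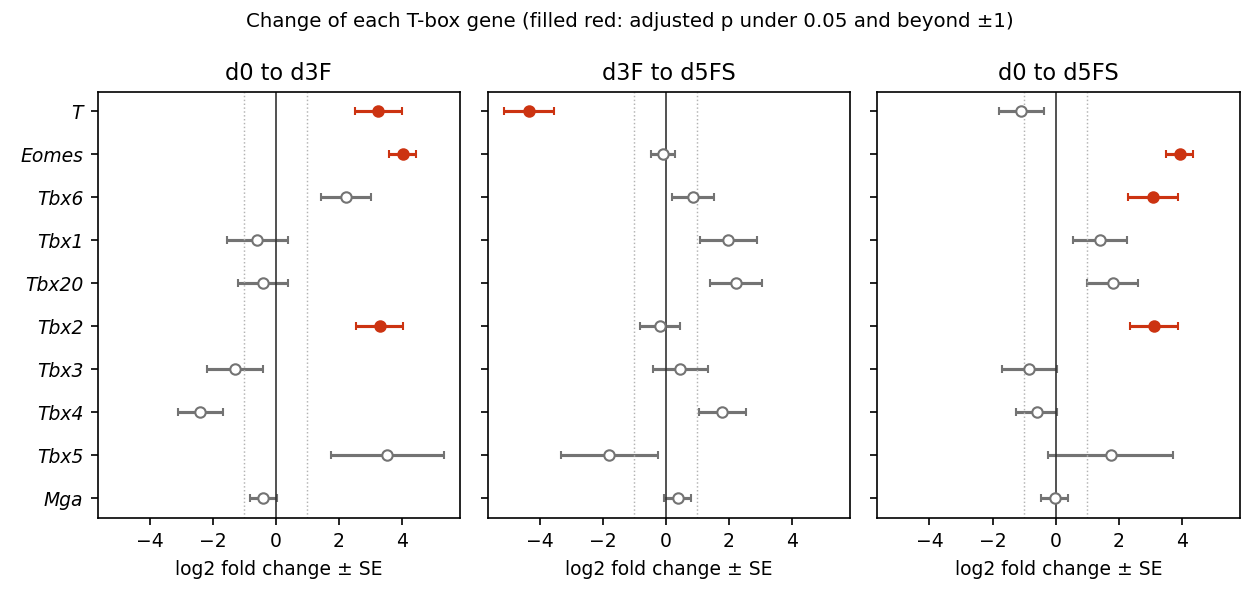
Log2 fold change of each T-box gene with its standard error (bars) for d0 to d3F, d3F to d5FS and d0 to d5FS; red filled points passed both thresholds and dotted lines mark changes of 1. T moves up and then down, Eomes lies to the right in both comparisons with d0 and near 0 from d3F to d5FS, and Tbx2 and Tbx6 lie to the right in the comparison of d0 with d5FS.

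T, the founding member of the family and a marker of the primitive streak and early mesoderm, had 20.4 and 4.49 CPM in d0, 183 and 66.1 CPM in d3F and 9.11 and 3.25 CPM in d5FS. Both d3F samples stood above all 4 others, and d0 and d5FS overlapped. T rose 9.54-fold from d0 to d3F (log2 fold change 3.25, SE 0.748, adjusted p = 0.0487) and fell 20.2-fold from d3F to d5FS (log2 fold change -4.34, SE 0.792, adjusted p = 0.0437). The difference between d0 and d5FS was not called (log2 fold change -1.08, adjusted p = 0.299). Against the mean of d0 and d5FS on the log2 scale, T was higher in d3F by 3.80 (SE 0.589, adjusted p = 0.0468), in a comparison where 0.33% of all genes were called higher. That comparison was called in 2 of 6 fits with a sample left out (adjusted p of 0.014 to 0.18). The adjusted p values lay close to the threshold. With each sample left out in turn, the rise was called in 1 of 6 fits, with a log2 fold change of 2.48 to 4.54, and the fall in 3 of 6, with -5.20 to -3.56. Replicate 1 was above replicate 2 in each population, 4.54-fold in d0, 2.77-fold in d3F and 2.81-fold in d5FS.

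Eomes, which directs mesendoderm cells towards endoderm, had 10.7 and 4.4 CPM in d0, 107 and 145 CPM in d3F and 126 and 117 CPM in d5FS. All 4 samples of d3F and d5FS stood above the d0 samples, and d3F and d5FS overlapped. The rise from d0 was 16.2-fold to d3F (log2 fold change 4.02, SE 0.436, adjusted p = 0.00695) and 15.3-fold to d5FS (log2 fold change 3.93, SE 0.434, adjusted p = 0.00195). It was the only member whose rises were called in 6 of 6 fits with a sample left out and under all 7 other settings tried. Between d3F and d5FS the difference was -0.09 on the log2 scale (SE 0.382, adjusted p = 0.931), a value with an error too wide to show that the levels were the same. Eomes also passed the comparison of d3F with the mean of d0 and d5FS (log2 difference 2.05, adjusted p = 0.0472), although its d3F and d5FS samples overlapped. This call was made in 2 of 6 fits with a sample left out, with adjusted p of 0.0158 to 0.284, and under 4 of 6 other settings.

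Within a sample, the TPM of T divided by that of Eomes was 3.66 and 1.93 for d0, 3.24 and 0.868 for d3F and 0.138 and 0.0522 for d5FS. T thus exceeded Eomes in both d0 samples and in 1 of the 2 d3F samples, and was below it in both d5FS samples. The ratio in each d3F sample was above that in either d5FS sample.

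Tbx6, which directs cells from neural to paraxial mesoderm fates, was detected with few counts. Its counts were 3 and 2 for d0, 17 and 9 for d3F and 25 and 12 for d5FS, or 0.136 and 0.0899, 0.747 and 0.435, and 1.52 and 0.684 CPM. The d0 samples were lowest, and d3F and d5FS overlapped. It was called higher in d5FS than in d0 (log2 fold change 3.10, SE 0.788, adjusted p = 0.0264), but in 0 of 6 fits with a sample left out. The summed counts gave a ratio of 9.65 between these populations, with an exact 95% binomial interval of 3.78 to 31.5 that covers counting error only. From d0 to d3F its log2 fold change of 2.23 was not called (adjusted p = 0.156).

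Tbx1, a factor of the pharyngeal region and the second heart field, had 5 and 4 counts for d0, 1 and 5 for d3F and 8 and 12 for d5FS. Both d5FS samples, at 0.486 and 0.684 CPM, stood above the d0 and d3F samples. None of its comparisons was called, and the change from d3F to d5FS was 1.98 on the log2 scale (SE 0.902, adjusted p = 0.294).

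Tbx20, which acts in the developing heart and its valves, reached its highest level in d5FS. It had 16.8 and 2.07 CPM in d0, 5.05 and 9.04 CPM in d3F and 48.5 and 20.3 CPM in d5FS. Both d5FS samples stood above all 4 others, and replicate 1 of d0 was 8.12-fold above replicate 2. The change was 2.22 from d3F to d5FS (SE 0.818, adjusted p = 0.207) and 1.81 from d0 to d5FS (SE 0.805, adjusted p = 0.133) on the log2 scale, and neither was called. Without d0 replicate 1, the latter was 3.79 and called (adjusted p = 0.00989), and DESeq2 with the same thresholds called both. The tables count 3 transcripts for Tbx20, and the mean transcript length that RSEM estimated was 6132 and 4492 bases in d0, 4845 and 4675 bases in d3F and 5448 and 3855 bases in d5FS. Replicate 1 had the longer estimate in each population, and for no other member did this estimate vary by more than 1.69% among samples. Its TPM depends on these estimates, and its CPM does not.

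Tbx5, needed for the heart and the forelimb, was at 0 and 3 counts for d0, 2 and 35 for d3F and 0 and 9 for d5FS. Counts stood in replicate 2 in each population, with replicate 1 at 2 or fewer, and the populations overlapped. The log2 fold change from d0 to d3F was 3.54 with an SE of 1.78 (adjusted p = 0.316), and no comparison was called. The ratio of the summed counts of d3F to those of d0 was 12.6, with an exact 95% binomial interval of 3.99 to 63.8 for counting error, and it rests on d3F replicate 2.

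Tbx2, a repressor that acts in the heart and the limbs, had 0.181 and 0.225 CPM in d0, 1.19 and 3.1 CPM in d3F and 2.07 and 1.88 CPM in d5FS, from 4 and 5, 27 and 64, and 34 and 33 counts. The d0 samples were lowest, and d3F and d5FS overlapped. It rose 9.8-fold from d0 to d3F (log2 fold change 3.29, SE 0.752, adjusted p = 0.0476) and 8.69-fold from d0 to d5FS (log2 fold change 3.12, SE 0.754, adjusted p = 0.0222). These rises were called in 1 of 6 and in 2 of 6 fits with a sample left out. The summed counts gave ratios of 10.3 (exact 95% binomial interval 5.21 to 23.3) and 9.71 (4.82 to 22.2). These intervals cover counting error only and leave out the spread between replicates, such as 27 and 64 counts in d3F.

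Tbx3, the close relative of Tbx2 that takes part in ESC self-renewal, had 3.98 and 26.6 CPM in d0, 3.29 and 10.4 CPM in d3F and 10.1 and 9.68 CPM in d5FS. The populations overlapped, and the widest gap was that between the d0 samples. None of its comparisons was called, that of d3F with d0 giving a log2 fold change of -1.30 (SE 0.878, adjusted p = 0.472). Without d0 replicate 2 this value turned to 0.86. Relative to each other, Tbx2 had 0.0536 and 0.00962 of the TPM of Tbx3 for d0, 0.489 and 0.398 for d3F and 0.271 and 0.266 for d5FS. The ratio was lowest in the d0 samples, where Tbx2 was at 9 counts in all.

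Tbx4, a hindlimb factor, had its highest level in d0. It had 15 and 16 counts for d0, 3 and 3 for d3F and 7 and 10 for d5FS, or 0.679 and 0.719, 0.132 and 0.145, and 0.425 and 0.57 CPM, and no 2 populations overlapped. Its log2 fold changes of -2.39 to d3F (SE 0.725, adjusted p = 0.103) and of 1.79 onwards to d5FS (SE 0.75, adjusted p = 0.257) were not called. The difference between d0 and d5FS was not called either (log2 fold change -0.60, SE 0.646, adjusted p = 0.534). The ratio of summed counts of d3F to d0 was 0.198, with an exact 95% binomial interval of 0.0674 to 0.481 for counting error. That of d5FS to d0 was 0.715, with an interval of 0.371 to 1.33, so d0 was not shown to exceed d5FS.

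Mga, which dimerises with Max and represses germ cell genes in ESCs, was not called in any comparison. It had 240 and 124 CPM in d0, 189 and 104 CPM in d3F and 261 and 123 CPM in d5FS, and all populations overlapped. Its log2 fold changes were -0.40, 0.38 and -0.03 in the 3 comparisons, with SEs of 0.427 to 0.428 and adjusted p values of 0.672, 0.691 and 0.97. Replicate 1 was 1.94-, 1.81- and 2.12-fold above replicate 2. Mga has the longest transcript of the family, with a mean of 13847 bases, and transcripts over 8000 bases were counted more in replicate 1 (above). The part of length in its replicate gap was not tested.

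The 7 other T-box genes of the mouse (Tbr1, Tbx10, Tbx15, Tbx18, Tbx19, Tbx21 and Tbx22) had at most 14 counts in any sample. Of these, Tbx15 and Tbx21 passed the filter and 0 were called. The antisense gene Tbx3os2 had at most 4 counts.

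Genes known to act with or downstream of the members were followed as lists drawn up from their known roles, which share some genes. Values in parentheses after a gene are its log2 fold changes. The counts of each list stand beside the shares of all tested genes given above, 2.8% higher and 1.9% lower for d3F against d0, 1.08% and 0.461% for d5FS against d3F and 12.4% and 10.4% for d5FS against d0, and no list was tested against other genes. Among 16 genes linked to Eomes in mesendoderm and endoderm, 12 were higher and 0 lower in d3F than in d0, with a median log2 fold change of 4.20. One gene was lower at an unadjusted p under 0.05, and DESeq2 called 0 lower. The largest rise was that of Foxa2 (8.42), which the sort itself selects, followed by Lhx1 (7.01) and Gsc (6.43), homeobox genes of the anterior streak, and Fgf8 (6.29), a growth factor of the streak. In d0, Foxa2 had 0.02 and 0.05 TPM and Lhx1 0.07 and 0.04 TPM, so the size of their folds rests on near-zero values. The genes not called were Mesp2, Hhex, Nodal and Lefty2. The count was 7 to 11 with a sample left out, lowest without d0 replicate 2 or d3F replicate 2.

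From d3F to d5FS, Sox17 (3.03, also selected by the sort) and Cer1 (2.75), an inhibitor of Nodal, rose further. Mesp1 (-6.02), a factor of cardiac mesoderm, and Mixl1 (-2.62), a homeobox gene of the streak, fell. Mesp1 had 0.94 and 1.5 TPM in d3F against 0.03 and 0 TPM in d5FS, so this fold rests on near-zero values. These 4 calls were 0 in the fits without d3F replicate 1, d5FS replicate 1 or d5FS replicate 2, and the falls also without d3F replicate 2. In the fit without d3F replicate 1 edgeR called 0 of all genes although 1206 had an unadjusted p under 0.05. In d5FS against d0, 12 genes of the list were higher and 1, Mesp2, was lower, with a median of 5.52. Mesp2 was lower in 0 of 6 fits with a sample left out.

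Among 20 genes linked to T, 15 passed the filter, and those at too few counts were Msgn1, Wnt3a, Hes7, Ripply2 and Foxc2. In d3F, 7 of the 15 were higher than in d0 and 0 lower, with a median of 2.50, and 0 were lower at an unadjusted p under 0.05 or in DESeq2. The genes with the largest rise were Fgf8 (6.29), Chrd (5.35) and Noto (5.31), both of the node and notochord, and Shh (4.30), a notochord signal. Shh had 0.01 and 0.03 TPM in d0 and 0.94 and 0.4 TPM in d3F, so its fold rests on near-zero values. From d3F to d5FS, 0 were higher and 2 lower, with a median of -1.44, namely Noto (-5.06) and Chrd (-2.54). Without the adjustment 1 was higher and 8 lower, and DESeq2 called 1 and 7. Noto had 3.01 and 1.04 TPM in d3F against 0.04 and 0.03 in d0 and 0.02 and 0.05 in d5FS, so its d3F samples alone were above 0.05 TPM. In d5FS against d0, 6 were higher and 2 lower. The latter were the Wnt targets Axin2 (-2.02) and Lef1 (-1.75, adjusted p = 0.0499). These counts were 4 to 8 and 0 to 2 with a sample left out, both lowest without d5FS replicate 1, and the latter also 0 without d5FS replicate 2. With a sample left out, the count of genes that rose from d0 to d3F was 5 to 7, and that of genes that fell from d3F to d5FS was 0 to 5, lowest without d3F replicate 1 or either d5FS sample.

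**Figure D4:**
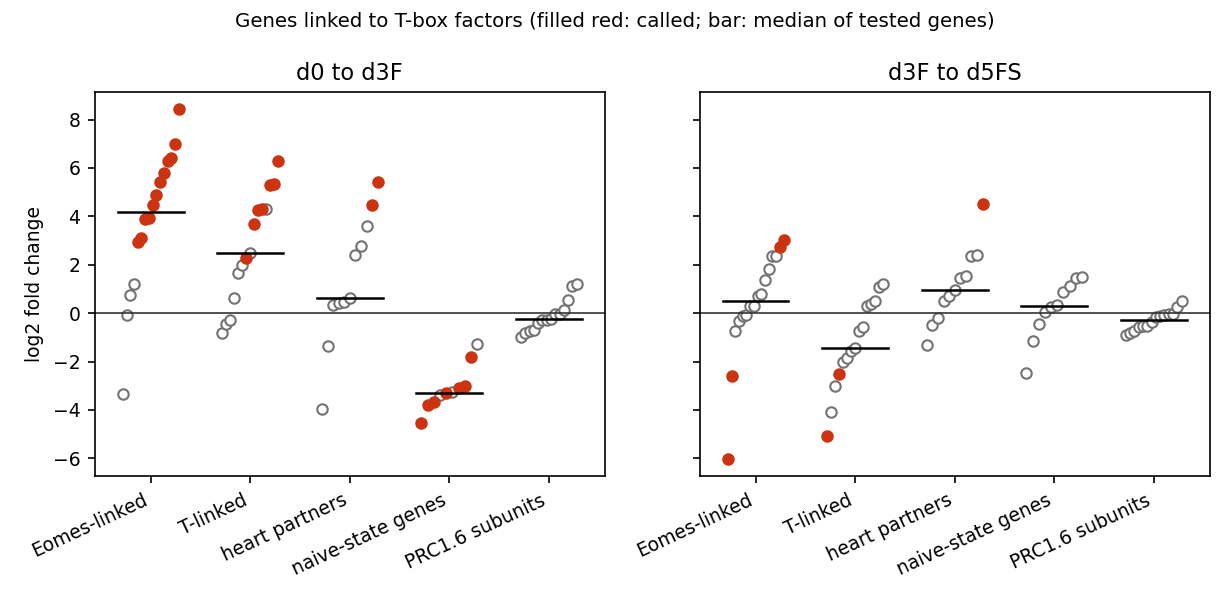
Log2 fold change of each tested gene of 5 lists linked to T-box factors, for d0 to d3F (left) and d3F to d5FS (right); red points were called, open points were not, and bars are the median of each list. The medians of the Eomes- and T-linked lists lie above 0 at d3F, the T-linked median is below 0 from d3F to d5FS, and the naive-state genes lie below 0 at d3F.

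Tbx20 and Tbx5 act in the heart with Nkx2-5 and Gata factors. Of 14 heart partners and targets, 11 passed the filter, and 2 of these rose from d0 to d3F, Gata6 (5.41) and Gata4 (4.47), which are also endoderm genes. From d3F to d5FS only Myl7, an atrial myosin light chain, was called (4.50), at 9.82 and 17.02 TPM in d3F and 430.68 and 102.22 TPM in d5FS. In d5FS against d0, 4 were higher: Myl7 (6.90), Gata4 (6.83), Gata6 (6.10) and the troponin gene Tnnt2 (4.33). With a sample left out, these counts were 1 to 3, 0 to 1 and 3 to 5, the first lowest without replicate 2 of d0 or d3F, the last without d0 replicate 2 or d5FS replicate 1, and the call of Myl7 from d3F to d5FS absent without replicate 1 of d3F or d5FS. In each of the 3 comparisons 0 were called lower. From d0 to d3F, 1 was lower at an unadjusted p under 0.05 and 1 in DESeq2, which also called 1 lower from d0 to d5FS. Myh6, of the same list, had log2 fold changes of -3.95 to d3F and -2.51 to d5FS against d0, and neither was called. Gata6 had 0.09 and 0.06 TPM and Tnnt2 0.06 and 0.02 TPM in d0, so their folds against d0 rest on near-zero values. Nkx2-5 was at 0.08 and 0.11 TPM and Nppa at 0.87 and 0.11 TPM in d5FS, and neither passed the filter. The summed TPM of 6 cardiac markers was 433 and 103 in d5FS, of which Myl7 made up nearly all. Both Tbx20 and Myl7 were higher in replicate 1 of d5FS than in replicate 2.

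Of 10 tested genes that maintain naive ESCs together with Tbx3, 7 were lower in d3F than in d0 and 0 higher, with a median of -3.29, and 0 were higher at an unadjusted p under 0.05 or in DESeq2. The largest falls were those of Zfp42 (-4.54), Tcl1 (-3.81), Esrrb (-3.66) and Klf2 (-3.30), and the genes not called were Nanog, Prdm14 and Nr0b1. In d5FS against d0, 8 were lower, and 2 to 8 with a sample left out, lowest without d5FS replicate 1. The fall to d3F was called for 0 to 9 genes with a sample left out, lowest without d3F replicate 2. Tbx3 itself was not called in these comparisons. In d0, 9 of the 10 genes had a higher TPM in replicate 2 than in replicate 1, as did Tbx3 (0.56 and 2.08 TPM), whereas T (7.03 and 0.85), Eomes (1.92 and 0.44) and Tbx20 (1.79 and 0.17) were higher in replicate 1. Zfp42, for example, had 53.96 and 101.93 TPM and Esrrb 6.16 and 16.87 TPM. The d0 samples thus differed in the opposite direction for the naive-state genes and for T and Eomes, while the median gene was 2.13-fold higher in replicate 1.

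Of 14 partners of Mga in the Polycomb complex PRC1.6, 0 were called between d0 and d3F or between d3F and d5FS, with medians of -0.26 and -0.27. At an unadjusted p under 0.05, 2 were higher and 2 lower in the first comparison and 0 and 3 in the second, and DESeq2 called 1 higher in the first and 0 in the second. In d5FS against d0, 5 were lower and 1 higher. Those lower were Cbx1 (-1.72), L3mbtl2 (-1.54), Hdac1 (-1.47), Pcgf6 (-1.21) and Tfdp1 (-1.20), which include the subunits L3mbtl2 and Pcgf6 that are particular to this complex, and the one higher was Yaf2 (1.43). Of all tested genes, 10.4% were lower and 12.4% higher in this comparison. The number lower was 1 to 4 with a sample left out, lowest without d5FS replicate 1, and the number higher 0 to 1, lowest without d0 replicate 2 or d5FS replicate 1. Max, the dimer partner of Mga, changed by -0.23, -0.17 and -0.41 and was not called. Among 10 other genes of the Max network, Mycl rose from d0 to d3F (2.47), Mxi1 rose from d3F to d5FS (2.56), both were higher in d5FS than in d0 (2.02 and 2.84), and Mxd3 was lower (-1.92). With a sample left out, 0 genes were called higher in d3F without d3F replicate 2, 0 were higher in d5FS than in d3F when any 1 of the samples of d3F or d5FS was left out, and 0 were lower in d5FS than in d0 in every fit but that without d0 replicate 1.

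Among 15 genes of the Nodal/Activin and Wnt pathways, which act upstream of T and Eomes, 0 were called from d0 to d3F, with 3 higher and 0 lower at an unadjusted p under 0.05 and 0 called by DESeq2. From d3F to d5FS the Nodal co-receptor Tdgf1 fell (-2.79), from 193.03 and 44.56 TPM to 17.65 and 5.64 TPM. Against d0, Tcf7l2 (3.04), Acvr1b (1.51), Smad2 (1.44) and Smad3 (1.31) were higher in d5FS, and Tdgf1 (-2.83) and Lef1 (-1.75) were lower. With a sample left out, the number lower from d3F to d5FS was 0 to 2, lowest without d3F replicate 1 or either d5FS sample. Against d0 the number higher in d5FS was 2 to 5, lowest without d0 replicate 2 or either d5FS sample, and the number lower 0 to 3, lowest without d5FS replicate 2. The ligand gene Wnt3 had 5.77 and 0.52 TPM in d0, 7.96 and 4.55 TPM in d3F and 1.02 and 0.65 TPM in d5FS and was not called.

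The genes whose log2 CPM was most like that of T over the 6 samples were Xpnpep3 (Pearson r 0.9945), Ttc28, Dock1, Il15ra and Apln (0.9873), and 39 genes had an r above 0.95. For Eomes they were Elmo1 (0.9988), Plxna2, Pcdh7, Rgs5 and Fzd2 (0.9958), with 302 above 0.95. For Tbx2 they were Ankrd63 (0.9993), Fat4, Ccdc80, Lrrc14b and Fgf10 (0.9939), with 191 above 0.95, and for Tbx6 they were Oas1b (0.9967), Ccni, Cplx2, Phex and Krcc1 (0.9899), with 206. These values describe 6 samples in 3 populations, which share their depth and the differences between replicates.

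Markers of other cells moved with some of these results. The summed TPM of 8 genes of extraembryonic endoderm was 46 and 17.8 for d0, 38.3 and 55.2 for d3F and 169 and 102 for d5FS, mostly from Sparc. Of these 8 genes, 5 were called higher in d5FS than in d0 and 0 lower (all genes: 12.4% higher, 10.4% lower). Sox7 (1.23), Lama1 (0.03) and Amn (0.82) were not called. Srgn (10.06) and Ttr (7.63) rose most, from 0.08 and 0 TPM and from 0 and 0.05 TPM in d0, so these folds rest on near-zero values. The summed TPM of 10 fibroblast genes was 4.16 and 1.97, 9.74 and 9.13, and 25.7 and 13. That of 6 neural markers was 6.21 and 3.43, 7.04 and 1.86, and 0.5 and 0.29. No marker of these lists was at 0 in every sample. The part of other cells in the levels of Tbx20, Tbx2 and Tbx6 in d5FS was not tested.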

How the data were processed

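Mouse ESCs and their sorted derivatives were measured by RNA-seq, 2 samples for each of d0, d3F and d5FS, grouped by the sorting markers and day in the labels. The authors' methods describe depletion of ribosomal RNA and alignment of reads to mm10 with STAR, and an RSEM gene table was deposited per sample. Versions of STAR and RSEM are not given in the sources used here. Expected counts were deposited without normalization. The TPM values were scaled by the authors for transcript length and to a common total. The authors' FPKM values were not used. The deposited transcript lengths served only as a description. The study names an mRNA and a total RNA library for each population without saying which sample is which. By these names the 2 samples of a population differ in library type, while the methods describe only depletion of ribosomal RNA. Which type each sample has is thus not known.

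Members, gene lists and tests were chosen with earlier results of these data known. All 10 members are described. From each list, the called genes with the largest change are named (at most 4, or more where 5 or fewer singled a set out), and for each called member the 5 genes of highest Pearson r.

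Expected counts were rounded and tested in edgeR 4.0.16 (R 4.3.3) with filterByExpr, TMM and the quasi-likelihood test (glmQLFit, glmQLFTest; prior count 0.125), with a mean per population and 3 residual degrees of freedom. P values were adjusted by Benjamini-Hochberg over 14539 genes. SEs were taken from the log2 fold change and the root of F. Likeness used log2 CPM with a prior count of 2. With 2 samples against 2, an exact permutation test cannot give a p below 0.33 and was not run. P values set each difference against the spread between these samples. The part of library type in this spread was not tested, since the type of each sample is not known. Alternatives were DESeq2 1.42.0 (size factors, and its Wald test, with the cut-offs above or with 1 as the tested log2 fold change), fits of genes without a filter or with 10 or more counts in each sample, a replicate block, only the populations compared, and each sample left out. For lists, the latter was added after seeing the data. The pipeline was tested on simulated data. Positions are from GENCODE M21 and promoters from RefSeq (GRCm38.p6). Scripts used Python 3.11.15.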

Additional observations from a re-analysis of the deposited data

How the results depend on the processing

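The rises of Eomes from d0 kept their call under every setting tried, and other calls did not. Members called numbered 3, 1, 3 and 2 from d0 to d3F, d3F to d5FS, d0 to d5FS and for d3F against the mean of the others. Without a filter they numbered 5, 2 and 5 in the first 3, adding Tbx3 and Tbx5, Tbx20, and T and Tbx20. With at least 10 counts in every sample they were 1, 0, 1 and 0. Tbx2 and Tbx6 were then not tested, T was tested and not called from d0 to d3F (adjusted p = 0.0635), from d3F to d5FS (0.0504) or against the mean (0.0722), nor Eomes against the mean (0.0714), and at an unadjusted p under 0.05 edgeR gave 2 members in each of the comparisons with 0. With only the populations compared they were 1 and 2 in the first pair. The DESeq2 test gave 2 from d3F to d5FS, adding Tbx20, and against a log2 fold change of 1 it gave 1 from d0 to d5FS and 1 for d3F against the others. With each sample left out, the 4 counts ranged from 1 to 2, 0 to 1, 1 to 2 and 0 to 2. The call of T from d3F to d5FS was lost without d3F replicate 1, d5FS replicate 1 or d5FS replicate 2, and 1, 1 and 2 members then had an unadjusted p under 0.05.

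All genes called numbered 683, 224, 3313 and 60. They were 1486, 1057 and 563 with DESeq2 in the first, second and last comparison, 383 and 1006 with DESeq2 against a log2 fold change of 1 from d0 to d3F and from d0 to d5FS, 1933, 1423 and 896 without a filter, 357, 144 and 12 with at least 10 counts, and 430 and 529 with only the populations compared in the first pair. With a sample left out they ranged from 97 to 977, 0 to 496, 1047 to 3037 and 0 to 208, the 0 of the second without d3F replicate 1 and that of the last without d5FS replicate 1, where 1206 and 1417 genes had an unadjusted p under 0.05.

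No label says that a shared replicate number marks a shared batch, so the samples were not treated as paired. A difference between replicates 1 and 2 that all populations share, such as that of long transcripts (above), thus counts as spread in the main fit. Replicate differences correlated between populations with r of 0.3141, 0.3237 and 0.2779 across 14539 genes, which are not independent replicates. The replicate block left the members called at 3, 1, 3 and 2, moved all genes called to 1320, 918 and 172 in the first, second and last comparison, and turned Tbx20 from d0 to d3F to 0.077. Under the block T was called from d0 to d3F (adjusted p = 0.00334), from d3F to d5FS (0.00366) and for d3F against the mean (0.00242). From d0 to d5FS T had an adjusted p of 0.0246 (0.299 without the block). Its log2 fold change of -0.97 did not pass the fold threshold.

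Values whose sign turned with a sample left out were all uncalled. From d0 to d3F they ranged from -1.20 to 1.58 for Tbx20, -0.77 to 0.0021 for Mga, -2.47 to 0.86 for Tbx3 and -2.22 to 0.25 for Tbx1, with the ends above 0 without d0 replicate 1 (Tbx20, Mga), d0 replicate 2 (Tbx3) or d3F replicate 1 (Tbx1; Tbx20 then at 0.027). From d3F to d5FS they ranged from -0.37 to 0.24 for Eomes, -0.77 to 0.79 for Tbx2, -0.20 to 1.65 for Tbx3 and -0.21 to 0.78 for Mga, which turned without d3F replicate 2 (Eomes, Tbx2), d3F replicate 1 (Tbx3) or d5FS replicate 1 (Mga). From d0 to d5FS they ranged from -1.94 to 0.19 for T, -1.68 to 1.32 for Tbx3, -3.71 to 5.42 for Tbx5 and -0.60 to 0.39 for Mga, which turned without d0 replicate 1 (T and Mga, Mga then at 0.36), d0 replicate 2 (Tbx3) or d5FS replicate 2 (Tbx5, Mga). Tbx3 in d3F against the others ranged from -2.06 to 0.20, turning without d0 replicate 2. Of 60 mean levels rescaled by TMM, 3 moved by over 1 SD. The cause of these changes was not tested. The part of depth in the values of members under 10 counts was not tested.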
